A study of Mus musculus with 7 samples.

Results

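The 10 genes examined here encode cyclic nucleotide phosphodiesterases, namely Pde1c, Pde3a, Pde3b, Pde4a, Pde4b, Pde4d, Pde7a, Pde8a, Pde8b and Pde10a. They were chosen by name, through the symbol that GENCODE M21 gives each Ensembl identifier, and all 10 were found among the 21899 genes of the files. The study sequenced mRNA of pancreatic islets, the endocrine clusters that hold the insulin-secreting β-cells, from second-generation (F2) male mice. The labels give 3 control-F2 and 4 AE-F2 samples, where AE stands for androgen exposure and the labels write HA or hyperandrogenism. The values below come from control-F2 replicate 1 and AE-F2 replicate 4, 1 library each, and the other 5 samples were not analysed here. Per the methods of the study, founder dams of the C57BL/6J strain received dihydrotestosterone in benzyl benzoate and corn oil late in pregnancy for the AE line, or the same vehicle alone for the control line. F1 sons were mated with unrelated wild-type females, and the F2 males themselves were not injected. Their age when islets were taken for sequencing, and whether a library pools animals, are not given in the sources used here. Islets were released by collagenase, separated on a density gradient and picked by hand, so that a library holds every cell type left in the pick.

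Phosphodiesterases end cyclic nucleotide signals. Glucose-primed β-cells secrete more insulin when hormones such as GLP-1 raise cAMP, which acts through protein kinase A and the Epac exchange factors, and phosphodiesterases hydrolyse the cAMP. Subfamilies differ in substrate and control: Pde4, Pde7 and Pde8 enzymes are specific for cAMP, Pde1c is switched on by calcium and calmodulin and cleaves both cAMP and cGMP, Pde3 enzymes cleave cAMP and are inhibited by cGMP, and Pde10a cleaves both nucleotides. The question is which of these genes the islets express, at which level, and by how much their levels differ between the AE-F2 and the control-F2 library.

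The control-F2 library held 16285888 counts and the AE-F2 library 21278513, 1.31 times as many. Ins1 and Ins2, the insulin genes, took 17.7% and 17.5% of the counts. Levels are given as CPM, the counts of a gene per 1000000 counts of its library after TMM scaling (factors of 1.00 and 0.999), and differences as log2 ratios, AE-F2 level over control-F2 level, after adding 0.5 counts. With 1 library per group there is no spread between animals and no test of the conditions. Each ratio has a 95% Clopper-Pearson interval, derived from how a gene's counts divide between the libraries, which covers counting error only and compares these libraries. In such bulk samples fewer cells of a type and less RNA per cell cannot be told apart.

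Pde3b and Pde8a were the most expressed members, and the level of Pde3b in the libraries differed by less than counting error. Pde10a and Pde4b were higher in the AE-F2 library by 1.22-fold and 1.18-fold, and Pde8a was lower, at 0.919 of its control-F2 level. Pde1c, whose enzyme links calcium to cyclic nucleotide breakdown, had 22.8 and 23.2 CPM. No member had a log2 ratio of 0.32 or more in either direction, which 18.2% of the 13627 genes tested had (those with 10 or more counts on average). No member was 2-fold apart either, as 3.82% of these genes were. Their median log2 ratio was 0.02, with 6 above and 4 below 0, and the median over all genes tested was -0.001. The median absolute log2 ratio was 0.13 for the members and 0.12 for all genes tested. All 10 members passed the minimum of 10 counts, and 9 of them averaged 100 counts or more. Of the 10540 genes at that higher minimum, 7.61% were past 0.32 and 0.465% past 2-fold.

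**Figure D1:**
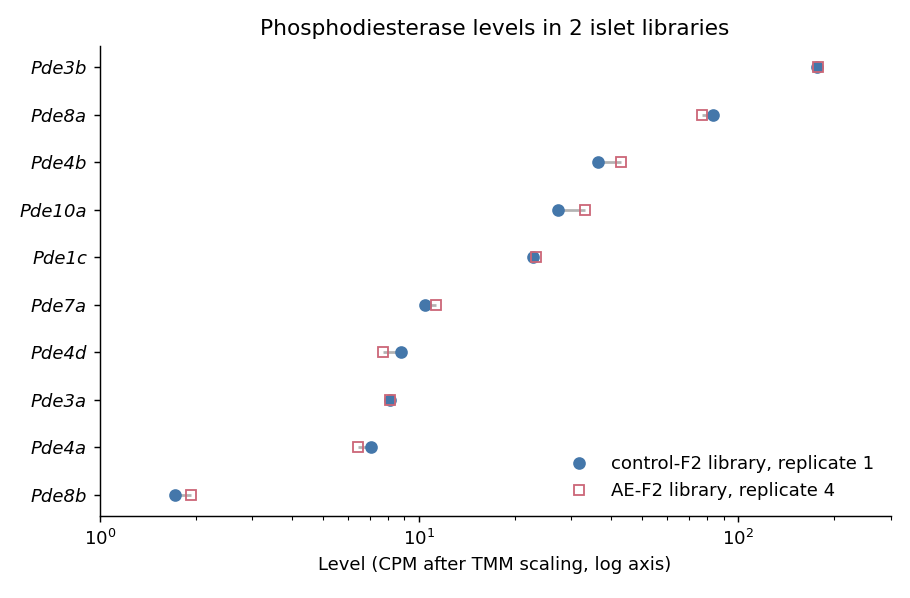
Level of each member in CPM on a log axis, with the control-F2 library as filled circles and the AE-F2 library as open squares, 1 library each. Pde3b lies highest at 177 and 178 CPM and Pde8b lowest at 1.72 and 1.93 CPM, and the largest gap between the symbols, that of Pde10a, is 1.22-fold.

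The Pde3 genes encode the cGMP-inhibited enzymes, and PDE3B is known to restrain cAMP in β-cells. Pde3b (ENSMUSG00000030671) had 2883 counts in the control-F2 library against 3775 in the AE-F2 library, 177 and 178 CPM. The log2 ratio was 0.01 with an interval from -0.06 to 0.08, the narrowest of the members. Its paralog Pde3a (ENSMUSG00000041741), best known from heart, vessels and oocytes, had 132 and 172 counts, 8.10 and 8.09 CPM. The log2 ratio of Pde3a was -0.003 (-0.34 to 0.34), and this sign flips when insulin and mitochondrial transcripts are left out of the library totals. Pde3b made up 95.6% of the Pde3 counts in each library (exact binomial intervals 94.8 to 96.3 for control-F2, 94.96 to 96.3 for AE-F2).

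Pde8a encodes a high-affinity cAMP enzyme that the general inhibitor IBMX does not block. Pde8a (ENSMUSG00000025584) had 1361 and 1632 counts, 83.5 CPM in the control-F2 library against 76.8 in the AE-F2 library. It was the only member with an interval below equality, at a log2 ratio of -0.12 (-0.23 to -0.02), and 13.7% of all genes tested had such an interval. Pde8b (ENSMUSG00000021684) was the least expressed member, with 28 and 41 counts. Its log2 ratio of 0.16 had an interval from -0.56 to 0.91, which includes equality and is the widest of the members. Pde8a held 98.0% of the Pde8 counts in the control-F2 library against 97.5% in the AE-F2 library.

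The Pde4 genes encode the rolipram-sensitive cAMP-specific enzymes and are the most numerous subfamily among the members. Pde4b (ENSMUSG00000028525) had 593 counts in the control-F2 library against 916 in the AE-F2 library, 36.4 and 43.1 CPM, a log2 ratio of 0.24 (0.09 to 0.40). Pde4d (ENSMUSG00000021699) had 143 and 164 counts, 8.77 and 7.71 CPM, a log2 ratio of -0.19 (-0.52 to 0.15). Pde4a (ENSMUSG00000032177) had 115 and 137 counts, 7.06 and 6.44 CPM, a log2 ratio of -0.13 (-0.50 to 0.24). Only the interval of Pde4b excluded equality, while its paralogs had few counts and wide intervals. Within the Pde4 subfamily, with Pde4c included, Pde4b took 62.4% of the 950 control-F2 counts (59.3 to 65.5) and 69.1% of the 1325 AE-F2 counts (66.6 to 71.6). That shift, a log2 odds ratio of 0.43 with an exact interval from 0.17 to 0.69, does not depend on how the libraries are scaled. The shares of Pde4a, Pde4c and Pde4d were each lower in the AE-F2 library, with odds ratio intervals that included equality.

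**Figure D2:**
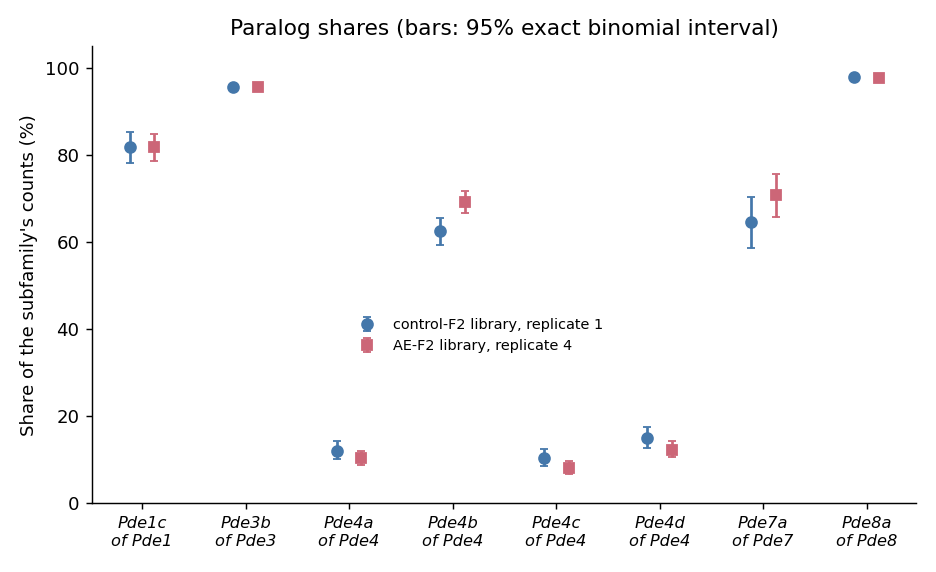
Share of each subfamily's counts, in percent, that a paralog takes, with control-F2 as circles and AE-F2 as squares, with 95% exact binomial intervals that cover counting error only. Pde4b stands at 62.4% and 69.1% of Pde4 with intervals that do not overlap, while Pde1c, Pde3b and Pde8a stand at like shares in both libraries.

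Pde10a encodes a dual-specificity enzyme known above all from the striatum of the brain. Pde10a (ENSMUSG00000023868) had 443 and 703 counts, 27.2 CPM in the control-F2 library against 33.1 in the AE-F2 library. Its log2 ratio of 0.28 (0.11 to 0.46) was the highest of the members. Intervals above equality were found for Pde10a and Pde4b, 2 of 10 members, and for 13.2% of all genes tested. Counting both directions, 3 of 10 members and 26.9% of all genes tested had an interval that excluded equality, a share of the members near that background.

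Pde1c (ENSMUSG00000004347) had 371 counts in the control-F2 library against 493 in the AE-F2 library. The log2 ratio was 0.03 with an interval from -0.17 to 0.22, that is, from 0.888-fold to 1.17-fold, and this depth could not show a smaller change. The study reports Pde1c as significantly upregulated in AE-F2 islets in its RNA-seq. With 1 library per group that difference between the groups was not tested here. Pde1c took 81.9% of the Pde1 counts in each library (78.0 to 85.3 and 78.6 to 84.9), ahead of Pde1b with 65 and 92 counts and Pde1a with 17 and 17. Pde7a (ENSMUSG00000069094), a cAMP-specific enzyme known from lymphocytes, had 170 and 240 counts, 10.4 and 11.3 CPM, a log2 ratio of 0.11 (-0.18 to 0.41). Its share of the Pde7 counts was 64.6% and 70.8% with overlapping intervals.

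**Figure D3:**
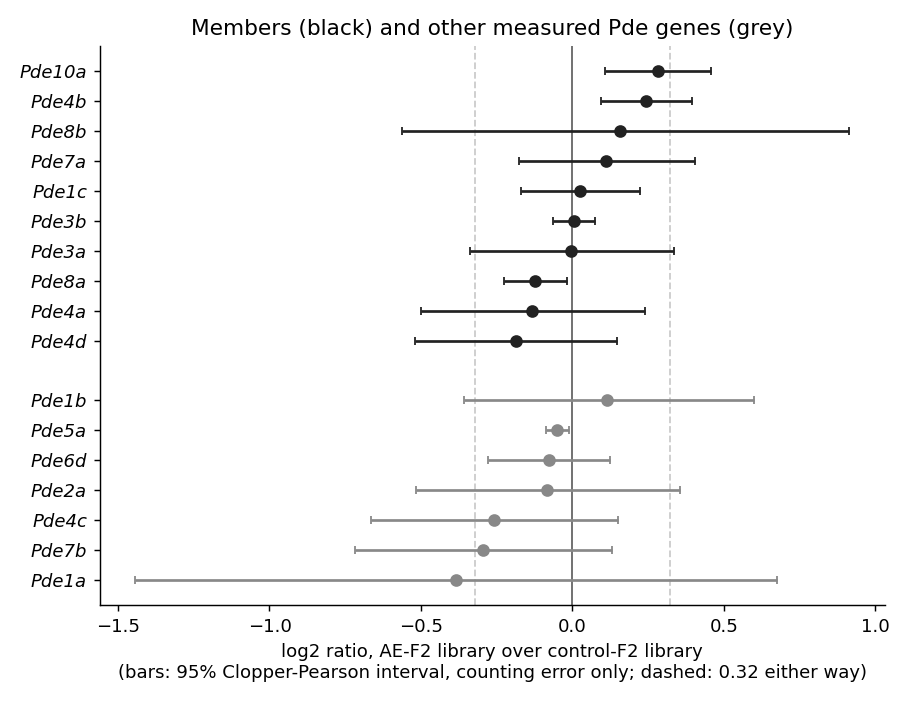
log2 ratio of the AE-F2 library over the control-F2 library for the 10 members (black) and the 7 other Pde genes that passed the minimum of 10 counts (grey), with 95% Clopper-Pearson intervals. Pde10a and Pde4b lie right of 0 with their whole interval and Pde8a and Pde5a left of it, and no member passes the dashed lines at 0.32 either way.

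The log2 ratios of 9 pairs of members were set against each other directly. The difference was taken as the log2 odds ratio of the pair's counts in both libraries, with its exact interval, which needs no scaling. The pairs were chosen after the values were seen, so the intervals describe these counts. Pde10a exceeded Pde8a by 0.40 (0.20 to 0.61), Pde4b exceeded Pde4d by 0.43 (0.06 to 0.80), and Pde10a and Pde4b exceeded Pde3b by 0.28 (0.09 to 0.47) and 0.24 (0.07 to 0.41). Pde8a was below Pde3b with a difference of -0.13 (-0.25 to -0.0003). The difference of Pde10a and Pde1c, 0.26, had an interval from -0.01 to 0.52, and that of Pde4b and Pde4a, 0.37, one from -0.03 to 0.77. Pde10a and Pde4b differed by 0.04 (-0.19 to 0.27), and Pde1c and Pde3b by 0.02 (-0.19 to 0.23).

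**Figure D4:**
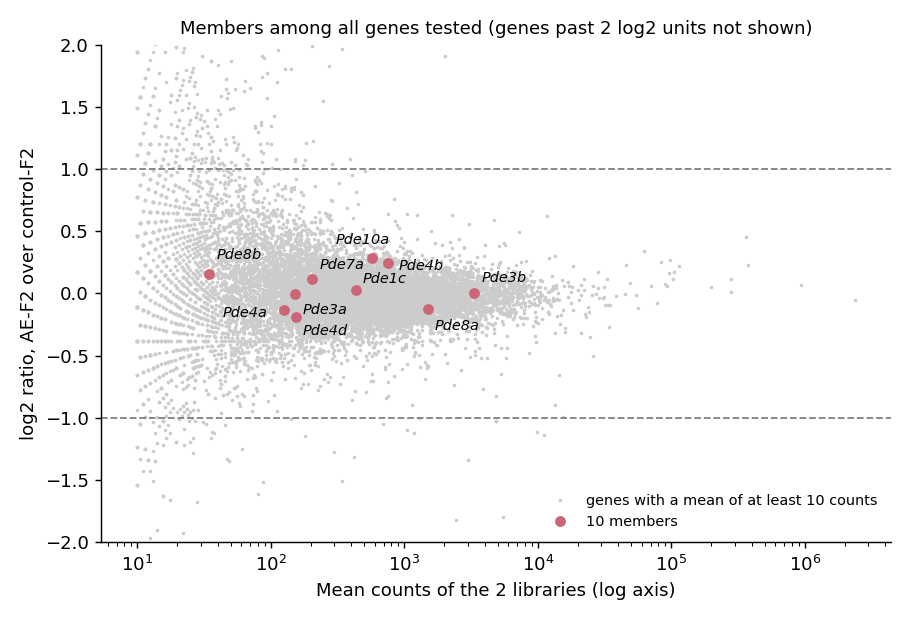
log2 ratio of the AE-F2 library over the control-F2 library against the mean counts of both libraries on a log axis, for the genes that passed the minimum of 10 counts (grey) and the 10 members (red). Genes with a log2 ratio past 2 either way are not shown. The members lie between log2 ratios of -0.19 and 0.28, inside the grey cloud at their level and far from the dashed 2-fold lines.

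Levels of different genes were compared per length, as CPM per kilobase of merged exons. Pde8a had 20.6 CPM per kilobase in the control-F2 library against 19.0 in the AE-F2 library, and Pde3b had 19.4 and 19.5. The order of these leading genes therefore differs between the libraries, and it also turns with the length used, since the longest transcript in place of merged exons puts Pde3b first in both. Together they made up 79.0% of the members' summed level per kilobase in the control-F2 library against 76.7% in the AE-F2 library. Pde4b followed with 3.45 and 4.08 CPM per kilobase and Pde10a with 2.12 and 2.57. Pde7a had 1.35 and 1.46, Pde1c 1.13 and 1.16, and Pde4a 0.922 and 0.842. Pde4d, Pde3a and Pde8b came last with 0.731, 0.636 and 0.292 in the control-F2 library, an order that was the same in the AE-F2 library. The lower order turns with the length too: by the longest transcript, the control-F2 library has Pde1c ahead of Pde4d, Pde7a and Pde4a, and the shares of the members' summed level become 12.1% in place of 6.80% for Pde4b, 3.72% in place of 2.24% for Pde1c and 2.99% in place of 1.44% for Pde4d. Merged exons are long where a gene has many transcripts, 20067 bases for Pde1c with its 14 annotated transcripts against 4045 for Pde8a with 3. The files hold 1 value per gene, so shares of single isoforms were not measured.

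None of the 10 members had a fractional count in either library, whereas 8.56% of the control-F2 values and 9.28% of the AE-F2 values were fractional, as arises when reads are divided between like genes. In the GENCODE M21 transcripts 8 of the members share no stretch of 75 bases with another gene. The exceptions are Pde3a, with 5.27% of its stretches shared with Gm28523, and Pde8b, with 5.86% shared with Gm48420. These are genes on the opposite strand whose exons overlap the member, and the NEBNext kit named in the methods is not described there as marking strand, so that reads of either partner cannot be told apart.

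The start regions of Pde4b, Pde10a, Pde8a and Pde1c are shown because these are the members with an interval off equality, with Pde1c as the calcium-linked member beside them. Each run holds the 100 bases just before a RefSeq transcript start on GRCm38.p6, 5′ to 3′ on the gene's strand. Capitals mark TGACG on either strand, the core of the cAMP response element that CREB binds.

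Pde4b, chr4:102421455-102421554, plus strand: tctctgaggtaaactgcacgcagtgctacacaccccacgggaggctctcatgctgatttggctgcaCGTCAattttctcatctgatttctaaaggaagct
Pde8a, chr7:81213165-81213264, plus strand: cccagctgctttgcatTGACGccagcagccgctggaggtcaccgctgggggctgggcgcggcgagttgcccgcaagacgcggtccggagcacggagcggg
Pde10a, chr17:8849885-8849984, plus strand: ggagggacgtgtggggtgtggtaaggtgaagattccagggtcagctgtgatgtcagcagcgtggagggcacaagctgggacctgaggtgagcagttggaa
Pde1c, chr6:56369635-56369734, minus strand: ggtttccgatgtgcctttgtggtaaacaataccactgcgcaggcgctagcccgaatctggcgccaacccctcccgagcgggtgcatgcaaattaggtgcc

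The printed Pde4b start has the core as CGTCA at position -34, counted from the transcript start, and was picked from 4 Pde4b windows as the 1 that holds it. The only Pde8a window has the core as TGACG at position -84. None of the 3 Pde1c and 2 Pde10a windows holds it, and 1 of each is printed. The RefSeq table used here holds 19 start windows of 300 bases for 7 of the members, with 250 bases before the start and 50 after it. Start windows of Pde3a, Pde3b and Pde7a were not analysed here. The core occurred in 4 of the 19 windows, 21.1%, and in 20.8% of 32851 windows of all genes. The whole element TGACGTCA occurred in 0 of the 19 windows and in 1.79% of all windows. These matches describe the letters in the windows, and the count files do not say which start was used.

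The other 14 Pde genes were listed to complete the family, and 7 of them passed the minimum of 10 counts. Pde5a (ENSMUSG00000053965), the cGMP-specific enzyme that sildenafil inhibits, had 10441 counts in the control-F2 library against 13161 in the AE-F2 library. That was 60.0% and 59.0% of the counts of all 24 Pde genes, against 35.8% and 37.1% for the 10 members together. Per kilobase of merged exons Pde5a stood at 65.2 and 63.0 CPM, 3.36 and 3.23 times the level of Pde3b. Its log2 ratio was -0.05 (-0.09 to -0.01). Of the 7 genes, 6 had a log2 ratio below 0, with a median of -0.08. That median is the value of Pde2a, which shares 61.8% of its stretches of 75 bases with Gm45837. The counts of Pde2a were fractional, 81.54 and 100.95. Only Pde1a, with 17 counts in each library, was past 0.32, as 18.2% of all genes tested were in either direction. Pde1a stood at -0.38 with an interval that included equality (-1.44 to 0.68), and it was singled out after its value was seen. The 7 that did not pass had at most 5 counts in a library, among them Pde6a, Pde6b, Pde6c, Pde6g and Pde6h, which encode photoreceptor subunits.

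The summed counts of the 10 members were 6239 and 8273. Their log2 ratio was 0.02 with an interval from -0.02 to 0.07, which includes equality. Among the members' counts the share of Pde4b was 9.50% (8.79 to 10.3) for control-F2 against 11.1% (10.4 to 11.8) for AE-F2, that of Pde10a was 7.10% (6.48 to 7.77) and 8.50% (7.91 to 9.12), and that of Pde8a was 21.8% (20.8 to 22.9) and 19.7% (18.9 to 20.6). Pde3b took 46.2% (45.0 to 47.5) and 45.6% (44.6 to 46.7).

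The genes that make, sense and relay cyclic nucleotides were read from lists beside the phosphodiesterases. Of 16 tested genes of cAMP production, 5 had a log2 ratio of 0.32 or more and 1, Gnal with 64 and 54 counts, a decrease of that size, beside 11.3% and 6.92% of all genes tested. The list median was 0.03, which turns to -0.12 at a minimum mean of 100 counts, and the log2 ratio of the list's summed counts was -0.02. By intervals the balance was the other way, with 3 above and 6 below equality, beside 13.2% and 13.7% of all genes tested. The 5 were the adenylate cyclases Adcy1, Adcy2, Adcy5, Adcy7 and Adcy8, named like Gnal after their values were seen, and each had under 100 counts in the control-F2 library. Only the intervals of Adcy2 and Adcy7 among these 5 excluded equality. The most abundant genes of this list had smaller ratios: Gnas, the stimulatory G protein, had a log2 ratio of 0.06 (0.04 to 0.09), the inhibitory Gnao1 and Gnai2 -0.15 (-0.19 to -0.11) and -0.09 (-0.14 to -0.04), and Adcy6 -0.14 (-0.23 to -0.05). Of 11 tested cAMP effectors none was past 0.32 in either direction, as 18.2% of all genes tested were, and 7.61% of those averaging 100 counts or more. None had an interval above equality and 2 had one below it, beside 13.2% and 13.7% of all genes tested. The protein kinase A catalytic gene Prkacb had a log2 ratio of -0.17 (-0.20 to -0.14), the regulatory genes Prkar1a and Prkar1b 0.01 (-0.03 to 0.05) and -0.17 (-0.25 to -0.10), and Rapgef4, which encodes Epac2, -0.02 (-0.09 to 0.06).

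Among the 13 anchoring genes, which hold protein kinase A and phosphodiesterases in place, 9 had a log2 ratio below 0 and the median was -0.04, and 3 had an interval below equality, beside 13.7% of all genes tested. Pde4dip, which encodes the Pde4-binding protein myomegalin, had 3526 and 4267 counts and a log2 ratio of -0.11 (-0.17 to -0.04). Akap9 had a log2 ratio of -0.17 (-0.25 to -0.09), Akap11 of 0.01 and Akap13 of -0.03. Akap5 was the 1 anchor past 0.32, a decrease of a size that 6.92% of all genes tested had, with 25 and 17 counts and an interval that included equality (-1.92 to 0.01), and it was named after its value was seen.

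In the cGMP arm, 8 genes were tested, with a median of 0.04 that turns to -0.01 at a minimum mean of 100 counts, and 2 were past 0.32 in each direction, beside 11.3% of all genes tested that were higher and 6.92% lower by that size. Of these 4, Npr1 and Nos1 had intervals that excluded equality, while those of Gucy1a2 and Prkg2, named after their values were seen, included it. The natriuretic peptide receptor Npr1, a guanylate cyclase, had 529 and 540 counts, a log2 ratio of -0.35 (-0.53 to -0.18), and Npr2 had one of -0.11 (-0.29 to 0.07). The soluble guanylate cyclase subunits Gucy1a1 and Gucy1b1 had log2 ratios of 0.26 (-0.05 to 0.58) and -0.01 (-0.30 to 0.27). Nos1, a nitric oxide synthase, had 84 and 198 counts, a log2 ratio of 0.85 (0.48 to 1.24), and was named after its value was seen. Of the 11 tested genes of CREB, its partners and the Sik kinases, 10 had a log2 ratio below 0, with a median of -0.08, and 3 had an interval below equality, as 13.7% of all genes tested did. Sik1, a salt-inducible kinase that cAMP is known to induce through CREB, was at least 2-fold lower, which 0.66% of all genes tested were, with 228 and 134 counts and a log2 ratio of -1.15 (-1.47 to -0.84). Creb1 itself had a log2 ratio of -0.09 (-0.21 to 0.04), Crtc1 of -0.03, Ep300 of -0.11 and Sik3 of -0.01.

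**Figure D5:**
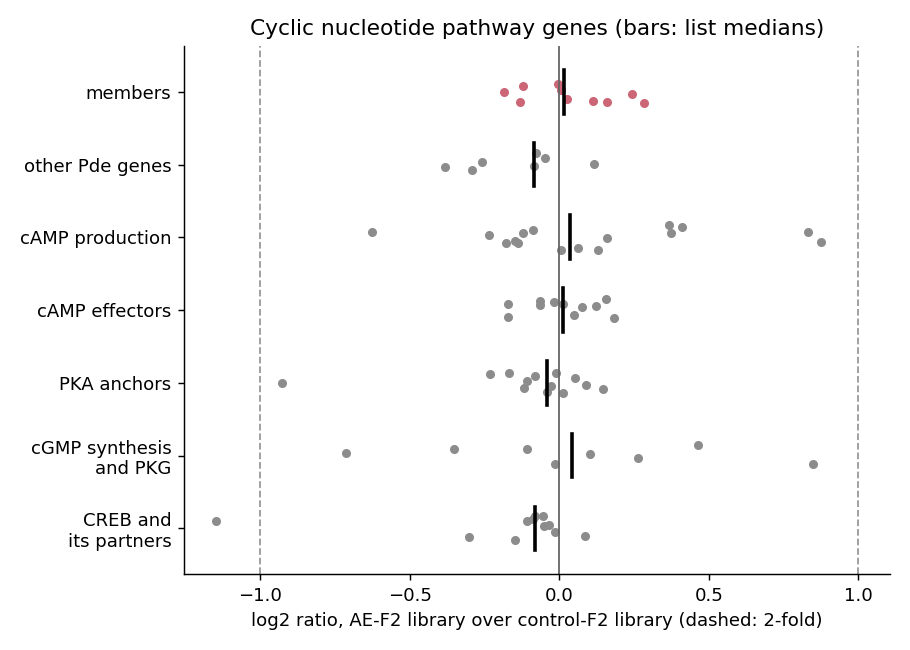
log2 ratio of the AE-F2 library over the control-F2 library for the tested genes in 7 lists of the cyclic nucleotide pathway, 1 point per gene with random vertical spread and a bar at the list's median. The members lie between -0.19 and 0.28, and Sik1, at -1.15 in the row of CREB and its partners, is the 1 gene past the dashed 2-fold lines.

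Cell type markers moved between the libraries beside these values. The 8 B cell markers summed to 15.5 CPM in the control-F2 library against 392 CPM in the AE-F2 library, 25.3-fold higher (22.3 to 28.8). Of these 8, 7 were at least 2-fold higher, which 3.16% of all genes tested were, and Ighd, named after its value was seen, was at 0 in the control-F2 library. The 9 myeloid and T cell markers summed to 29.5 and 65.8 CPM, 2.23-fold higher (2.01 to 2.48). Most of the added counts were those of Lyz2 and Ptprc, at 3.89-fold and 3.96-fold, and Cd4 had 1 and 38 counts. The macrophage markers Csf1r, Adgre1 and Cd68 had intervals that included equality, and the T cell markers Cd3e and Cd3d were at 0 in the control-F2 library, all of them singled out after their values were seen. The 8 mesenchymal markers were 1.42-fold higher as a sum (1.34 to 1.51), with 5 intervals above and 1 below equality, beside 13.2% and 13.7% of all genes tested. The 7 α-cell markers were 1.35-fold higher as a sum (1.34 to 1.35), most of which is Gcg, the glucagon gene. Their median log2 ratio was 0.13, and 3 of the 7 had intervals above equality, beside the same 13.2%. The 8 acinar markers were at 0.747 of their control-F2 level (0.734 to 0.760). The 10 β-cell markers stood at 1.001-fold as a sum, most of which is Ins1 and Ins2. Their median log2 ratio was -0.10, and 8 had intervals below and 2 above equality, beside 13.7% and 13.2% of all genes tested. The sums of the 4 δ-cell markers, the 7 endothelial markers and the 4 Schwann cell markers stood at 0.995-fold, 0.990-fold and 1.10-fold (0.916 to 1.32). Pde4b and Pde7a are also known from lymphocytes and Pde3a and Pde5a from smooth muscle, and the part of these cells in the values above was not tested.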

How the data were processed

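Islet mRNA libraries of F2 males were analysed, 1 control-F2 and 1 AE-F2, grouped by their titles. The authors deposited estimated counts per Ensembl gene, 1 file per library, not scaled for depth or length. The study's methods name HISAT2, whereas the submitters' processing notes name Bowtie2, RSEM and DESeq2, with no role given. The genome build and annotation of the RNA-seq are not given in the sources used here. Of the 21899 genes, 21806 matched a GENCODE M21 (GRCm38) symbol, which served for names, exon lengths and shared stretches only. A symbol with several identifiers was read from its most counted one.

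Counts were rounded and scaled with TMM factors (edgeR 4.0.16, R 4.3.3), and genes averaging 10 or more counts were kept (13627). Ratios used a pseudocount of 0.5, and 95% Clopper-Pearson and exact odds ratio intervals came from scipy 1.17.1. The intervals treat counts as independent, which PCR copies are not. They cover counting error only and may be too narrow even for that. A count of 3, taken as the detection floor, equals 0.184 CPM in the control-F2 and 0.141 CPM in the AE-F2 library. The AE-F2 library, the deeper one, gives the smaller error at a given level. No statistical model or p-value was used. Calls were a fold of 2 or a log2 ratio of 0.32. The ratio step was run on simulated independent Poisson counts, the setting that its intervals assume. The simulation had no PCR copies and no spread between animals, so that it checks the computation only. Alternatives were DESeq2 1.42.0 size factors, total counts, totals without Ins1, Ins2 and mitochondrial genes, a pseudocount of 5, other minimum counts, counts not rounded, thinned AE-F2 counts, and longest-transcript lengths. The members and all lists were chosen with earlier results of these data known. The text names all members, and of each list up to 4 of its most abundant genes and any gene past 2-fold with a mean of at least 100 counts. Any other gene, cell type markers included, was named after its values were seen. The protein features in the design were not computed, and with 1 library per group no genes of like pattern were sought. The result of 1 planned list is not reported here.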

Additional observations from a re-analysis of the deposited data

How the results depend on the processing

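Each member's log2 ratio was recomputed under 6 alternatives, 60 values in all, and all 60 lay inside the counting interval of the value reported. No member passed 2-fold under another scaling, a pseudocount of 5, no filter or a minimum mean of 100 counts, and under the main settings none passed a log2 ratio of 0.32. Pde1c ranged from 0.02 to 0.03, Pde4b from 0.23 to 0.25 and Pde10a from 0.27 to 0.29, while Pde8a stayed at -0.12. Of the 60 values 2 changed sign, both of Pde3a, to 0.003 without Ins1, Ins2 and mitochondrial genes in the totals and to 0.02 with thinned AE-F2 counts. Pde8b, with few counts, was the 1 member to pass 0.32 with thinned counts, at 0.43. With the longest transcript as length, the joint share of Pde3b and Pde8a was 70.1% for control-F2 against 67.2% for AE-F2, because long merged exons lower the other members. Of the 20 single shares 13 changed by more than a margin set from the exact interval of the member's share of counts. That margin is a yardstick of size only, because another length leaves the counts as they are. The median of the cAMP production list was 0.06 with no filter and -0.12 at a minimum mean of 100 counts, where its weakly expressed cyclases are left out, and that of the cGMP list was -0.01 there. No paired analysis was possible because each group has 1 library here and their replicate numbers, 1 and 4, differ. Depth limits Pde8b, Pde4a, Pde4d, Pde3a and Pde7a most, whose intervals all span equality.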
